A study of Mus musculus with 6 samples.

Results

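The bile acid transport and FXR genes are 10 genes that carry bile acids through the absorptive cells of the distal gut, sense them, or stand close to that pathway. They are Slc10a2, Fabp6, Slc51a, Slc51b, Nr1h4, Nr0b2, Fgf15, Gpbar1, Cubn and Akr1d1, out of 34866 genes in the count table. The genes were chosen by name, and the group was taken up because Fabp6, Slc10a2 and Akr1d1 differed strongly between libraries of this same experiment. The values of those 3 genes are therefore given as a description with no test, and the other 7 were tested.

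Bile acids secreted with bile are recovered mainly in the ileum. The apical sodium-dependent transporter Slc10a2 takes them into the enterocyte, the cytosolic binding protein Fabp6 carries them, and the heterodimer of Slc51a and Slc51b releases them across the basolateral membrane. Inside the cell they bind the nuclear receptor FXR, encoded by Nr1h4, which partners with RXR and is known to induce Fabp6, Slc51a, Slc51b, Nr0b2 and Fgf15. Fgf15 travels to the liver and lowers bile acid synthesis, while Nr0b2 (SHP) is a repressor that lacks a DNA-binding domain. Gpbar1 is a surface receptor for bile acids on enteroendocrine cells and macrophages, Cubn takes up cobalamin bound to intrinsic factor in the ileum, and Akr1d1 is the steroid reductase of hepatic bile acid synthesis.

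The study profiled RNA from intestinal adenomas excised from C57BL/6J mice aged 100 to 120 days, with 3 libraries from Apc1322T/+ mice and 3 from ApcMin/+ mice. Both genotypes carry a heterozygous germline truncating allele of Apc, and their adenomas arise after the other allele is lost, so every library comes from an Apc-mutant animal and none from normal tissue. According to the study's methods a sample usually pooled a few RNA extractions of a single mouse, and an excised adenoma also holds stroma, immune cells and neighbouring epithelium. The labels name no region of the intestine, and which allele a library carries cannot be checked from counts summed over the gene. Library totals ran from 23132461 to 33518324 estimated counts, at which 3 counts correspond to 0.0895 to 0.13 CPM (counts scaled to library size), and all 10 members passed the filter on low counts with the 16536 genes tested. Absorptive cell genes were present in every library, with log2 CPM of Vil1 (villin, a brush border protein) from 9.24 to 10.64. Of 7 pancreatic acinar genes, 6 were high only in ApcMin replicate 1, where the digestive enzyme precursor Ctrb1 had 2679 counts. The summed level of the 7 was 73.4 to 153 CPM in Apc1322T and 90.2 to 263 CPM in ApcMin, and the remaining gene, Cela1, had log2 CPM of 6.18 to 7.49 over the 6 libraries. Fold changes that rest on that library are also given without it.

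The promoter windows of Fabp6, Slc51b and Slc10a2 are shown first. Fabp6 and Slc10a2 were high in the same libraries, and Slc51b encodes 1 of the 2 subunits of the exporter, which were not. Whether the windows bear on these levels was not tested. Each window runs from 250 bases before to 50 bases after the RefSeq start on assembly GRCm38.p6, is 300 bases long and is written 5′ to 3′ on the strand of the gene. Capitals in Fabp6 and Slc51b mark the closest match to an inverted repeat of AGGTCA with 1 base between the arms, the classical form bound by FXR with RXR. Capitals in Slc10a2 mark the closest match to an inverted repeat of GTTAAT with 1 base between the arms, the form bound by HNF1.
Fabp6, chr11:43601513-43601812, minus strand: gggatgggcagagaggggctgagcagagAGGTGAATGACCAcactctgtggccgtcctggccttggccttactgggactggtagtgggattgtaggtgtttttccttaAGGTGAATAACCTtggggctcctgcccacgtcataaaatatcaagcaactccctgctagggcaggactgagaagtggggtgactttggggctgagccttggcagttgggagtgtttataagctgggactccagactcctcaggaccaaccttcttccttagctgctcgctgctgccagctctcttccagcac
Slc51b, chr9:65422724-65423023, minus strand: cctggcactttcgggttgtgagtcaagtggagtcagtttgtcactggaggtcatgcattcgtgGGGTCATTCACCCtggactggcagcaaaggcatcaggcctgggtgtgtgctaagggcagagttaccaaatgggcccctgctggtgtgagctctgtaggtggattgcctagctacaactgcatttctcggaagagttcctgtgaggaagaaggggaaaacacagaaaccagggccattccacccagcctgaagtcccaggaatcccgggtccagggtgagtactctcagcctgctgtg
Slc10a2, chr8:5105238-5105537, minus strand: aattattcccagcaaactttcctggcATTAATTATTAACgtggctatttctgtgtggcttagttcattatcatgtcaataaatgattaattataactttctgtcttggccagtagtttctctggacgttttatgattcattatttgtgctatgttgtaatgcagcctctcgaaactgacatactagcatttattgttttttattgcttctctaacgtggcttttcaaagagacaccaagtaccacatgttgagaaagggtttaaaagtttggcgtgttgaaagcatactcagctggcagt

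The search covered both strands of 32851 RefSeq promoter windows of this length, and 9 of the 10 members had a window. The Fabp6 window held 2 places within 2 mismatches of the AGGTCA inverted repeat, at -222 to -210 and -142 to -130 from the start, a closeness reached in 1.14% of all windows. Cubn also came within 2 mismatches, with AGATCATTGACAT at -118 to -106. Slc51a and Slc51b came within 3 mismatches, as did 11.4% of all windows, and the other 5 members within 4, as did 56.4%. The Slc10a2 window came within 1 mismatch of the GTTAAT inverted repeat at -224 to -212, which 0.207% of all windows did, and the Nr1h4 window came within 2, as did 1.36%. The hexamer TTTATG, a form bound by CDX proteins, was present in the windows of Fabp6, Slc10a2, Nr1h4 and Akr1d1 and in 11.9% of all windows. In Fabp6 and Slc10a2 it lies outside the places in capitals. The heptamer AAGGTCA bound by LRH-1, which contains the AGGTCA arm, was in no member's window and in 4.72% of all windows. These matches describe the letters in the windows and not binding.

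Fabp6 was close to absent from 4 libraries and abundant in 2. Its counts were 13, 13 and 14 in Apc1322T replicates 1 to 3, and 4560, 2105 and 31 in ApcMin replicates 1 to 3. In CPM these were 0.477, 0.618 and 0.613 against 127, 82.8 and 0.98, so the highest library stood 267-fold above the lowest. ApcMin replicates 1 and 2 were high, ApcMin replicate 3 lay near the Apc1322T libraries, and the genotypes did not overlap. The log2 fold change of ApcMin over Apc1322T was 6.95, and it was 6.19 without ApcMin replicate 1, which carried the pancreatic genes. The SD of log2 CPM was 3.8 within ApcMin and 0.19 within Apc1322T (n = 3 each). In bulk tissue, fewer cells of a type and less RNA per cell cannot be told apart, here and for the genes that follow.

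Slc10a2, the uptake transporter, followed the same libraries from a higher base. It had 3.96, 5.51 and 8.54 CPM in Apc1322T replicates 1 to 3 and 65.6, 77.9 and 4.46 CPM in ApcMin replicates 1 to 3. ApcMin replicates 1 and 2 were again high, while ApcMin replicate 3 fell inside the range of the Apc1322T libraries, so the genotypes overlapped. The log2 fold change was 3.04 over all libraries and ranged from 2.55 to 3.58 when each library was left out in turn, with 2.78 without ApcMin replicate 1. The 2 genes kept no fixed proportion, with Fabp6 at 0.0718 to 0.12 times the CPM of Slc10a2 in the Apc1322T libraries, and at 1.94, 1.06 and 0.22 times in the ApcMin libraries.

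**Figure D1:**
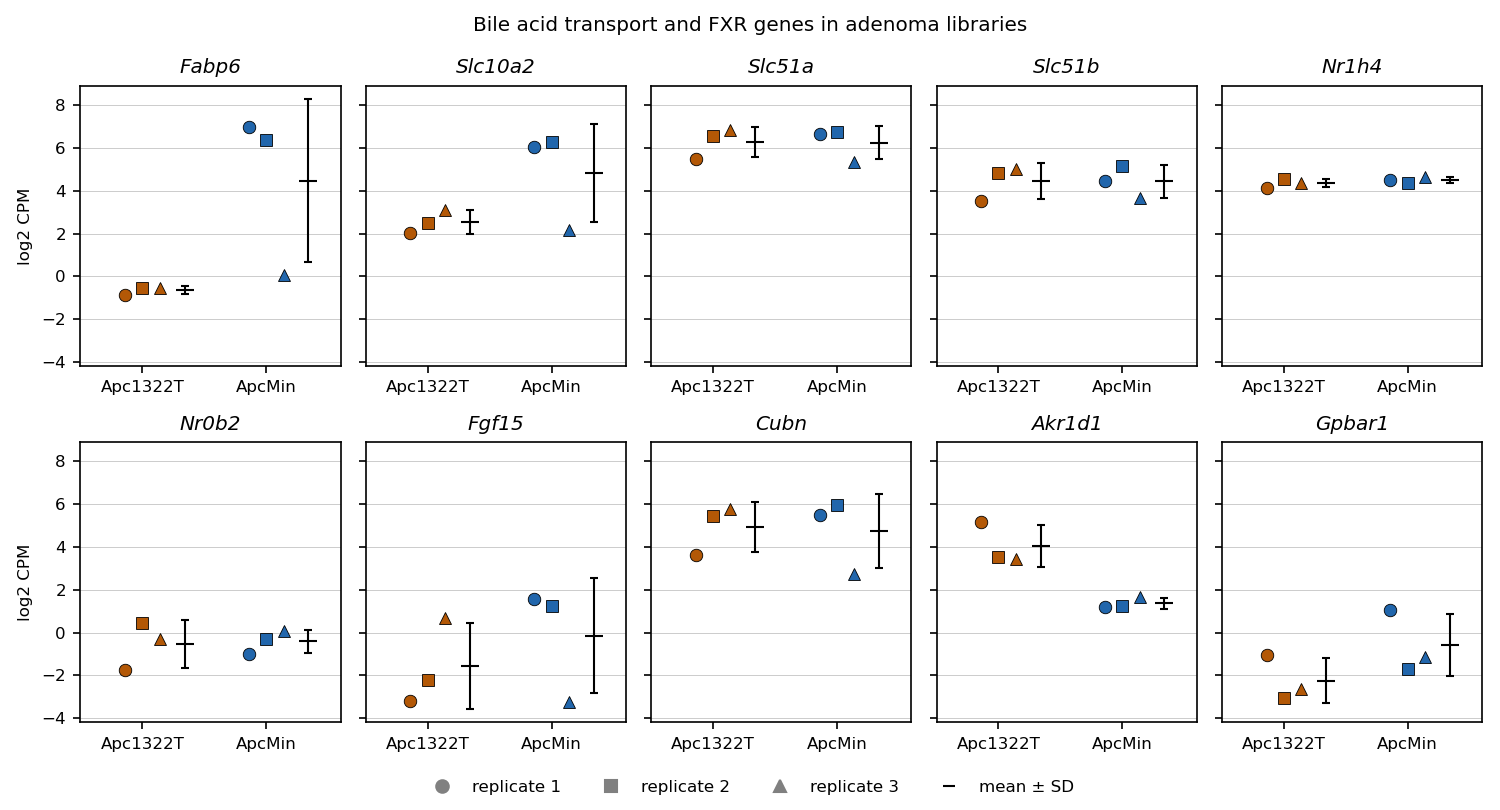
Log2 CPM (vertical axes) of the 10 members in the 3 Apc1322T (orange) and 3 ApcMin (blue) adenoma libraries, with a symbol for each replicate and bars for mean ± SD. Fabp6 and Slc10a2 are high in ApcMin replicates 1 and 2 only, Slc51a, Slc51b and Cubn are lowest in Apc1322T replicate 1 and ApcMin replicate 3, and Akr1d1 is higher in every Apc1322T library than in any ApcMin library.

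For the basolateral exporter no difference between genotypes was detected. Slc51a had 45.1, 92.8 and 114 CPM in Apc1322T replicates 1 to 3 and 100, 107 and 41 CPM in ApcMin replicates 1 to 3. Its partner Slc51b had 11.3, 28.3 and 32.6 CPM against 22, 36.2 and 12.6 CPM. Both subunits were lowest in Apc1322T replicate 1 and ApcMin replicate 3, and the genotypes overlapped. The log2 fold change was -0.02 (SE 0.46) for Slc51a, with an adjusted p of 0.987 in edgeR's quasi-likelihood test. For Slc51b it was -0.03 (SE 0.51), with an adjusted p of 0.983. The ratio of Slc51a to Slc51b stayed between 2.97 and 4.54 in the 6 libraries, a 1.53-fold spread, although each subunit alone moved 2.77-fold and 3.21-fold. Slc10a2 relative to Slc51a was 0.0594 to 0.0879 in the Apc1322T libraries, and 0.656, 0.725 and 0.109 in the ApcMin libraries, so that uptake and export genes kept different proportions.

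Nr1h4, which encodes FXR, was the steadiest member. Its log2 CPM was 4.15, 4.54 and 4.36 in Apc1322T replicates 1 to 3 and 4.49, 4.38 and 4.64 in ApcMin replicates 1 to 3, a range of 0.49. As wide a range was found in 63.0% of the genes tested. The log2 fold change of Nr1h4 was 0.15 (SE 0.13) with an adjusted p of 0.59, and the genotypes overlapped.

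Among the FXR target genes that encode no transporter, Nr0b2 was at low level in all libraries. It had 6, 27 and 17 counts in Apc1322T replicates 1 to 3 and 15, 19 and 31 counts in ApcMin replicates 1 to 3. Its log2 fold change was -0.05 (SE 0.66) with an adjusted p of 0.975. Fgf15, the hormone, had 1, 3 and 35 counts in the Apc1322T libraries and 102, 58.9 and 1 counts in the ApcMin libraries. Fgf15 was thus present above 3 counts in ApcMin replicates 1 and 2 and in Apc1322T replicate 3, where Fabp6 had 14 counts, and at or below 3 counts in the other 3 libraries. Its log2 fold change of 1.61 (SE 1.52) had an adjusted p of 0.618, and it was 4.28 without Apc1322T replicate 3 and 1.03 without ApcMin replicate 1. Fabp6, Slc51a, Slc51b, Nr0b2 and Fgf15, all known targets of FXR, did not take the same order across libraries. At the few counts of Nr0b2, of Fgf15 in 3 libraries and of Fabp6 in Apc1322T, the order of libraries is uncertain. The part of FXR in these levels was not tested.

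Gpbar1, the surface receptor, was sparse. It had 11, 1 and 2 counts in Apc1322T replicates 1 to 3 and 71, 6 and 12 counts in ApcMin replicates 1 to 3. ApcMin replicate 1 was the highest, and the genotypes overlapped because 11 counts in Apc1322T replicate 1 exceeded 6 in ApcMin replicate 2. For Gpbar1 the log2 fold change was 2.20 (SE 1.07) with an adjusted p of 0.372. Gpbar1 no longer passed the filter on low counts, and was not tested, without Apc1322T replicate 1, without ApcMin replicate 1 or without ApcMin replicate 3. Macrophage genes were highest in the same library, with a summed level of 214 CPM in ApcMin replicate 1 against 93.2 to 125 CPM in the other 5. Of the 6 macrophage genes 5 had a higher fitted level in ApcMin, the median log2 fold change was 0.64 (0.37 without ApcMin replicate 1), 0 passed an adjusted p of 0.01, and none was at 0 counts. Of 4 L cell markers, hormone genes of enteroendocrine cells, 3 were tested and had higher fitted levels in ApcMin, with a median of 0.63 (0.39 without ApcMin replicate 1), summed levels of 6.42 to 12.5 CPM in Apc1322T and 7.49 to 20.9 CPM in ApcMin, and Insl5 at 0 counts throughout. The part of macrophages and L cells in the Gpbar1 level was not tested.

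Cubn, the cobalamin receptor, varied widely between libraries, and no difference between genotypes was detected. It had 12.2, 43.1 and 54.5 CPM in Apc1322T replicates 1 to 3 and 45.4, 61.8 and 6.64 CPM in ApcMin replicates 1 to 3. Like the Slc51 subunits it was lowest in Apc1322T replicate 1 and ApcMin replicate 3. Its log2 fold change was 0.05 (SE 0.85) with an adjusted p of 0.98. Relative to Amn, the membrane anchor of the cubilin receptor, Cubn lay at 1.02 to 1.24 times its CPM in 4 libraries and at 2.11 and 2.18 times in ApcMin replicates 1 and 2.

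Between genotypes Akr1d1 differed in the opposite direction from Fabp6. Its levels were 36.4, 11.5 and 10.7 CPM in Apc1322T replicates 1 to 3 and 2.21, 2.32 and 3.07 CPM in ApcMin replicates 1 to 3. Every Apc1322T library was above every ApcMin library, and Apc1322T replicate 1 was the highest. The difference on the log2 scale was -2.95, and it was -2.12 without Apc1322T replicate 1. Of the hepatocyte markers, Ahsg (fetuin-A) was also lower in every ApcMin library, but at few counts. It had 28, 20 and 17 counts in Apc1322T replicates 1 to 3 and 5, 3 and 15 counts in ApcMin replicates 1 to 3. Its log2 CPM was 0.14, 0.03 and -0.29 in the former and -2.23, -2.39 and -0.87 in the latter. Alb (albumin), the most abundant of the list, overlapped between genotypes with log2 CPM of 4.34 to 4.63 in Apc1322T and 3.92 to 5.0 in ApcMin. Of the 7 hepatocyte genes 5 were tested, 1 had a higher and 4 a lower fitted level in ApcMin, the median was -0.13 (0.11 without ApcMin replicate 3 and -0.54 without ApcMin replicate 2), their summed level was 29.3 to 31.9 CPM in Apc1322T and 22.9 to 38.3 CPM in ApcMin, and Fgb was at 0 counts in all 6 libraries. The part of hepatocyte genes in the Akr1d1 level was not tested. Cyp7a1, the rate-limiting enzyme of bile acid synthesis in liver, was also at 0 counts in all 6.

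Among the 7 tested members, 0 passed an adjusted p of 0.01 in edgeR's quasi-likelihood test, 0 had an unadjusted p under 0.05 and 0 were free of overlap between genotypes. Over all 16536 genes tested the corresponding shares were 0%, 15.1% and 21.0%. DESeq2 also called 0 of the 7 at an adjusted p of 0.01, and 1 of them, Gpbar1, had an unadjusted p under 0.05. Of the 3 members that led to the choice, Fabp6 and Akr1d1 did not overlap between genotypes, and Slc10a2 did. The 10 members lie on 10 different chromosomes.

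**Figure D2:**
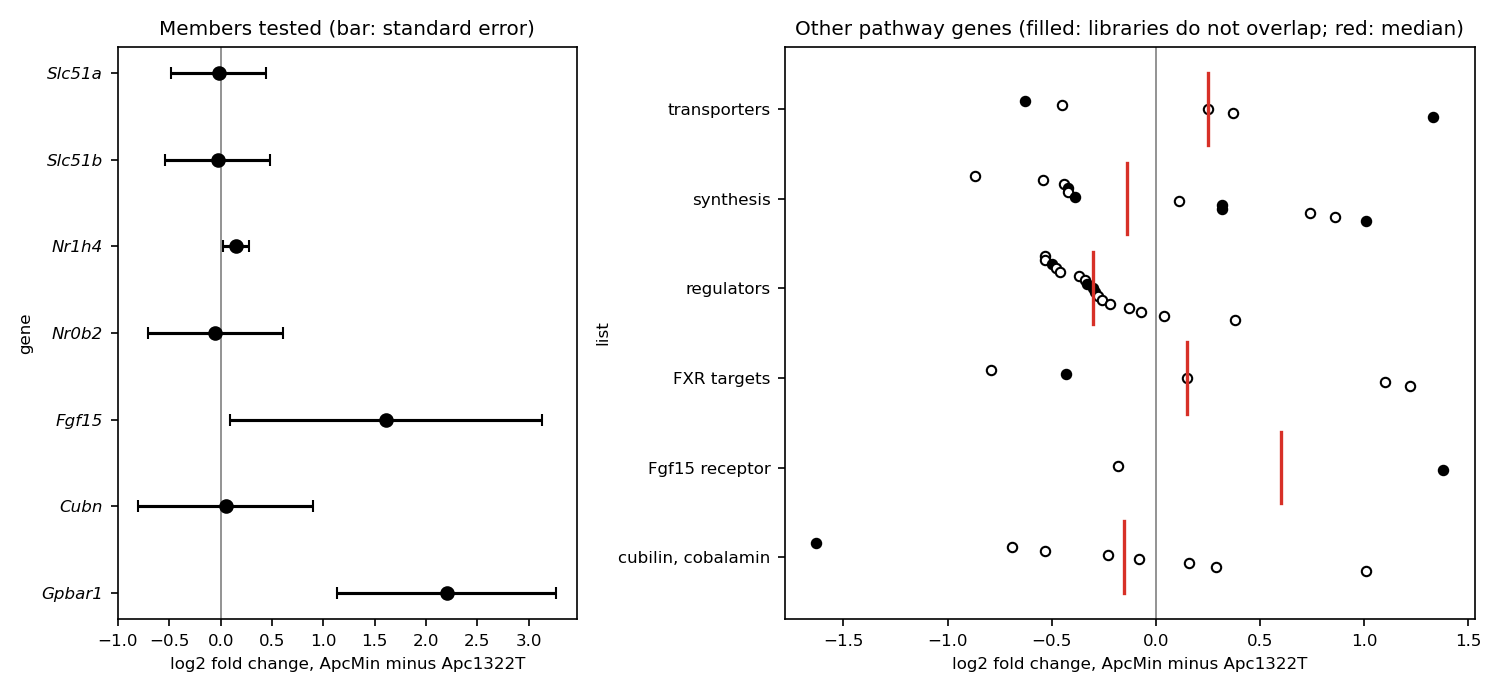
Log2 fold change of ApcMin minus Apc1322T (horizontal axes) for the 7 tested members with SE bars (left) and for the tested genes of 6 lists of related genes (right), where filled points mark genes whose libraries do not overlap between genotypes and red lines mark list medians. The estimates for Slc51a, Slc51b, Nr0b2 and Cubn lie within 0.05 of 0, and Fgf15 and Gpbar1 have the widest bars among the tested members.

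Levels were compared between genes per kb of exon. Fabp6 had the highest mean at 74.0 CPM per kb, but its libraries ran from 0.996 to 266. Slc51b followed at 33.6 (15.9 to 51.1) and Slc51a at 26.1 (12.8 to 35.5) CPM per kb. Nr1h4 came next at 9.36 CPM per kb (7.69 to 10.8), below every library of either Slc51 subunit. Slc10a2 had a mean of 6.66 CPM per kb, Akr1d1 3.81, Cubn 2.50, Nr0b2 0.647, Gpbar1 0.486 and Fgf15 0.377. These means pool genotypes that differ for some genes. Within Apc1322T the means were 6.75 ± 5.06 (SD, n = 3) for Akr1d1, 1.45 ± 0.56 for Slc10a2 and 1.19 ± 0.167 for Fabp6, and within ApcMin they were 0.875 ± 0.161, 11.9 ± 9.47 and 147 ± 134. Akr1d1 thus stood above Slc10a2 in the former and below it in the latter. Apart from Slc51a and Nr1h4, the pooled ranges of neighbouring genes in this order overlapped.

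The members were next set beside markers of gut region and of absorptive cells. The 10 enterocyte markers were all tested, all 10 had lower fitted levels in ApcMin with a median log2 fold change of -0.77, and 0 had an unadjusted p under 0.05. The median was -0.43 without Apc1322T replicate 3, -0.45 without ApcMin replicate 3 and -1.3 without ApcMin replicate 2. Their summed level was 7890 to 18200 CPM in Apc1322T and 5850 to 12400 CPM in ApcMin, with none at 0. Sis (sucrase-isomaltase) had log2 CPM of 7.59, 9.16 and 9.77 in Apc1322T replicates 1 to 3 and 8.76, 9.52 and 6.99 in ApcMin replicates 1 to 3, and so was lowest in the same libraries as Slc51a, Slc51b and Cubn. Alpi was instead lowest in ApcMin replicate 2 (log2 CPM 9.62), and Apoa1 in ApcMin replicates 3 and 1 (11.06 and 11.49). All other genes of the list were lowest in the libraries where Sis was. Relative to Sis, Cubn spanned 2.00-fold, Slc51a 2.47-fold and Slc51b 2.66-fold. Slc10a2 still spanned 15.7-fold and Fabp6 418-fold relative to Sis. Relative to Vil1 the spans were 2.06-fold for Slc51a, 2.53-fold for Slc51b, 19.3-fold for Slc10a2 and 365-fold for Fabp6, while Cubn spanned 5.26-fold and so kept a closer proportion to Sis than to Vil1. Each of these genes had its highest ratios to Vil1 in ApcMin replicates 1 and 2. How far the amount of absorptive epithelium in each sample sets these levels was not tested.

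**Figure D3:**
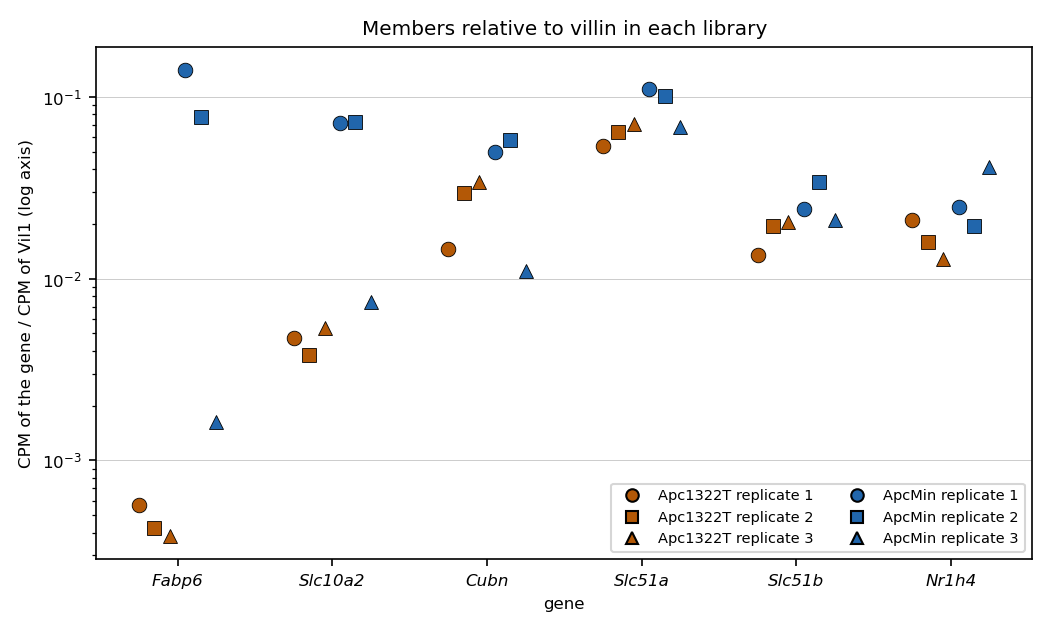
CPM of 6 members divided by the CPM of Vil1 (log axis) in each library, with orange for Apc1322T, blue for ApcMin and a symbol for each replicate. Fabp6 runs from 0.000384 to 0.14, Slc10a2 from 0.00379 to 0.073 and Slc51a from 0.0535 to 0.11. ApcMin replicates 1 and 2 are on top for these genes and also for Slc51b and Cubn, but not for Nr1h4.

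Markers of the distal small intestine were highest in different libraries, and only some of them in those with high Fabp6. Of 8 such genes, 4 had higher and 4 lower fitted levels in ApcMin, the median log2 fold change was 0.03, and 0 passed an adjusted p of 0.01. That median lay between -0.25, without ApcMin replicate 2, and 0.46, without Apc1322T replicate 3 or ApcMin replicate 3. Their summed level was 1050 to 2400 CPM in Apc1322T and 1010 to 2140 CPM in ApcMin, with none at 0. The protease Mep1a had log2 CPM of 3.25, 5.55 and 5.67 in Apc1322T replicates 1 to 3 and 6.64, 6.93 and 2.59 in ApcMin replicates 1 to 3. ApcMin replicates 1 and 2 were highest for Mep1a, and Apc1322T replicates 2 and 3 came next with Fabp6 counts of only 13 and 14. Nts, Clec2h and Gcg were, like Mep1a, highest in ApcMin replicate 2, and Pyy in ApcMin replicate 1. For Clec2h and Gcg the lead over Apc1322T replicate 3 was slight, at 568 against 559 CPM and 2.95 against 2.93 CPM. Enpep was instead highest in Apc1322T replicate 3 (log2 CPM 8.59), Muc3 in Apc1322T replicate 2 (10.61) and Muc3a in ApcMin replicate 3 (6.49).

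Markers of the proximal small intestine did not share a single pattern. Of 12 such genes, 2 had higher and 10 lower fitted levels in ApcMin, with a median of -0.63 (-1.04 without ApcMin replicate 2) and 0 at an adjusted p of 0.01. Their summed level was 12600 to 18500 CPM in Apc1322T and 5180 to 11800 CPM in ApcMin, with none at 0. Their mean log2 CPM was 7.95, 8.71 and 8.20 in Apc1322T replicates 1 to 3 and 7.34, 7.52 and 7.53 in ApcMin replicates 1 to 3. The sum was lowest in ApcMin replicate 1, where Fabp6 was highest, and Apoa4 alone held 2550 of the 5180 CPM there. Apoa4, Rbp2, Fabp1, Apoc2, Apoc3 and Gata4 were each lowest in that library, as with Fabp1, a fatty acid-binding protein, at log2 CPM of 9.58, 10.47 and 10.33 in Apc1322T replicates 1 to 3 and 8.13, 9.60 and 8.39 in ApcMin replicates 1 to 3. Gata4 was as low in ApcMin replicate 2 (log2 CPM 5.97 against 5.96), and Rbp2 nearly so in ApcMin replicate 3 (9.74 against 9.61). Pdx1, Cybrd1, Slc40a1 and Onecut2 were instead lowest in ApcMin replicate 2, and Lct and Leap2 in ApcMin replicate 3. Pdx1, a transcription factor of the duodenum and pancreas, had log2 CPM of 4.84, 5.29 and 3.51 in Apc1322T replicates 1 to 3 and 4.82, 2.10 and 5.22 in ApcMin replicates 1 to 3. The duodenal iron reductase Cybrd1 had 10.12, 9.54 and 7.16 against 9.40, 6.73 and 10.69. Both were next lowest in Apc1322T replicate 3, and in ApcMin replicate 1 they stood near Apc1322T replicates 1 and 2. Of 10 colon markers 6 were tested, 3 higher and 3 lower, with a median of 0.05 (-0.27 without Apc1322T replicate 1 and 0.47 without Apc1322T replicate 2), summed levels of 58.8 to 237 CPM in Apc1322T and 76.5 to 143 CPM in ApcMin, and Hoxa13 and Hoxd13 at 0 counts in all libraries. The regional and enterocyte markers named here were picked after their values were seen, and their part in the levels of the members was not tested.

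The genes most like Fabp6, Slc10a2 and Akr1d1 were sought among the 1780 tested genes (10.8%) whose log2 CPM spanned at least 2 units over the 6 libraries. Likeness is Pearson's r over those 6 libraries, which share depth and tissue composition with the members, and it serves as a ranking only. By Pearson, the closest to Fabp6 were Slc10a2 (r = 0.973), Plb1 (0.973), Gm10778 (0.971), Tmigd1 (0.955) and Igkv4-74 (0.942). For Slc10a2 they were Tmigd1 (0.997), Plb1 (0.988), Fabp6 (0.973), Fam151a (0.961) and Akr1c14 (0.934). The ranking depends on the measure, since Spearman's rho was 0.543 to 0.829 for the 5 genes listed with Fabp6, and the 3 genes that reached a rho of 1 with it share none with this list. For Slc10a2 rho was 0.714 to 0.943, and the 5 genes with a rho of 1 again share none. Plb1, a brush border phospholipase, had 6, 5 and 31 counts in Apc1322T replicates 1 to 3 and 2284, 1013 and 13 counts in ApcMin replicates 1 to 3. Tmigd1, an epithelial adhesion protein, had 69, 89 and 165 counts against 2019, 1689 and 80. Each was thus high in ApcMin replicates 1 and 2, as Fabp6 was. Fam151a differed in part, with 59.5 counts in Apc1322T replicate 3 against 3.2 and 4.9 in the other Apc1322T libraries and 811.5, 570.6 and 2.1 in ApcMin.

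For Akr1d1 the closest genes were Trpv4 (r = 0.990), A4gnt (0.981), the pseudogene Itih5l-ps (0.975), Col11a2 (0.969) and Serpinf2 (0.966). Spearman's rho was 0.943 for each, and the 1 gene with a rho of 1 was not among them. A4gnt, the glycosyltransferase that caps mucins of gastric and duodenal glands, had log2 CPM of 5.71, 4.88 and 4.32 in Apc1322T replicates 1 to 3 and 3.32, 3.06 and 3.61 in ApcMin replicates 1 to 3. The calcium channel Trpv4 had 4.88, 3.96 and 4.12 against 2.86, 3.08 and 3.31. Both were highest in Apc1322T replicate 1, as was Akr1d1. Muc6, the mucin of those glands, was also highest there, at 10.57, 9.66 and 9.49 against 8.93, 8.61 and 9.92, but ApcMin replicate 3 stood second. Of the 6 gastric markers 2 had higher and 4 lower fitted levels in ApcMin, with a median of -0.45 that was 0.39 without Apc1322T replicate 2 and -0.27 without ApcMin replicate 1, summed levels of 815 to 1650 CPM in Apc1322T and 492 to 1140 CPM in ApcMin, and none at 0. The part of gland cells in the Akr1d1 level was not tested.

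**Figure D4:**
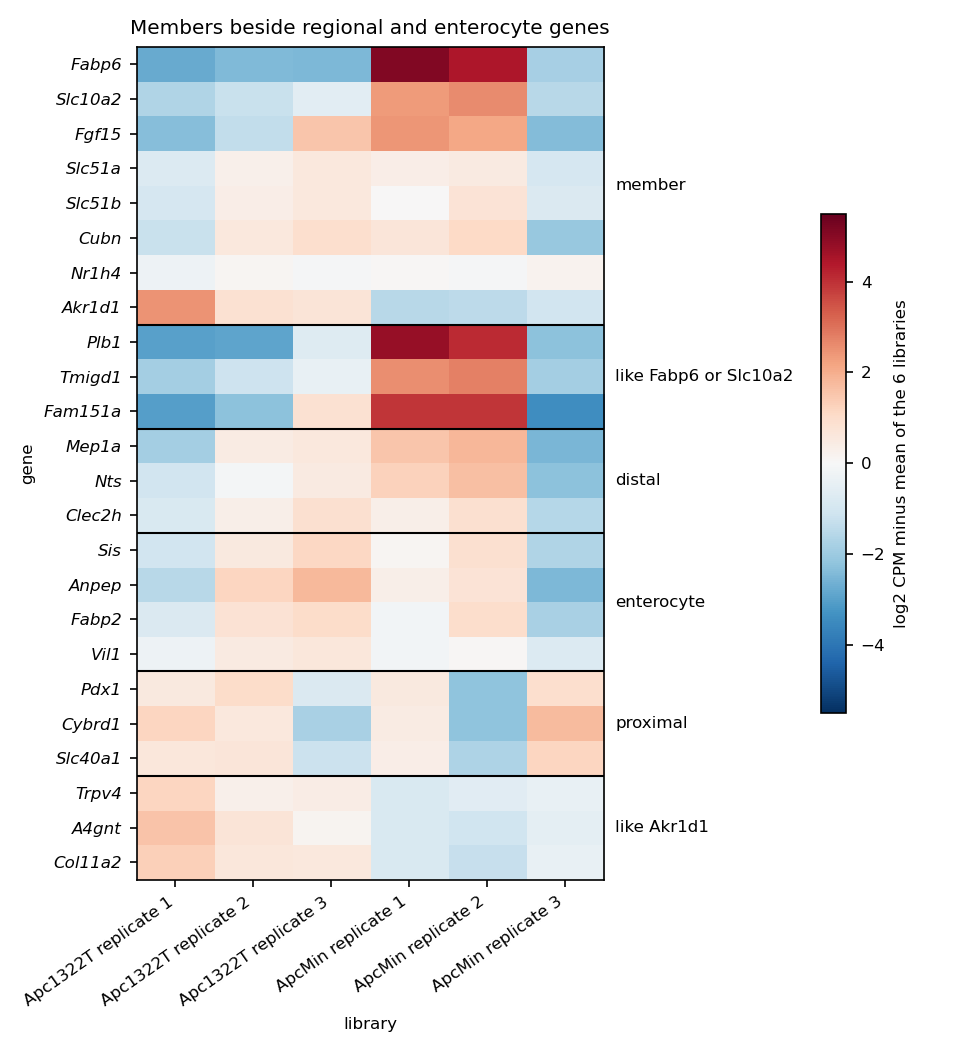
Log2 CPM minus the mean of the 6 libraries (colour) for 8 members, genes most like 3 of them, and selected regional and enterocyte markers (rows) in each library (columns). The regional and enterocyte rows are only a part of their lists. Markers with other patterns, such as Apoa4, Fabp1, Lct, Enpep, Muc3, Alpi and Apoa1, are not shown. Fabp6, Slc10a2, Plb1 and Tmigd1 are red in ApcMin replicates 1 and 2 only, Cybrd1 and Pdx1 are blue in Apc1322T replicate 3 and ApcMin replicate 2, and Akr1d1 is red in the 3 Apc1322T libraries.

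The nearest tested genes on the chromosome are given as positional context. Beside Fabp6, the range of log2 CPM over the 6 libraries was 0.94 for 4933415A04Rik, at 7.0 kb, and 0.42 for Pwwp2a, at 80.5 kb. Beside Slc10a2 it was 0.28 for Shcbp1 and 1.48 for Gm1840, and beside Akr1d1 it was 0.49 for Creb3l2 and 0.89 for Atp6v0c-ps2. Since Fabp6, Slc10a2 and Akr1d1 were chosen for wide variation, no comparison of these ranges with theirs is drawn.

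Other genes of the pathway were counted in 6 lists that hold 61 genes of the table, of which 49 were tested. Of these 18 had a higher and 31 (63.3%) a lower fitted level in ApcMin, while 47.6% of all genes tested were lower. In edgeR's quasi-likelihood test 0 passed an adjusted p of 0.01 or of 0.05, the lowest adjusted p being 0.257. An unadjusted p under 0.05 was found for 19 (38.8%), compared with 15.1% of all genes tested, and for 6 without Apc1322T replicate 2, 9 without Apc1322T replicate 3, 10 without ApcMin replicate 1 and 12 without ApcMin replicate 3. The libraries of the genotypes did not overlap for 14 (28.6%), of which 5 were higher and 9 lower in ApcMin, compared with 21.0% of all genes tested. DESeq2 called 2 at an adjusted p of 0.01, Abcc4 with a log2 fold change of 1.31 (adjusted p = 0.000542) and Hsd17b4 with -0.40 (adjusted p = 0.00936), and found 24 at an unadjusted p under 0.05.

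Among other bile acid transporters 5 of 9 genes were tested, 3 higher and 2 lower in fitted level, with a median log2 fold change of 0.25 compared with 0.017 over all genes tested. The median was 0.06 without Apc1322T replicate 1, 0.07 without Apc1322T replicate 2 and 0.1 without ApcMin replicate 3. Abcc4, an efflux pump of the basolateral membrane, had log2 CPM of 5.10, 4.36 and 4.40 in Apc1322T replicates 1 to 3 and 5.58, 5.94 and 6.34 in ApcMin replicates 1 to 3. The ApcMin libraries of Abcc4 were all above the Apc1322T libraries. Its fitted log2 fold change was 1.33 (SE 0.27), with an adjusted p of 0.257 in edgeR. Abcc3, another basolateral efflux pump, did not overlap either and was lower in ApcMin, with a log2 fold change of -0.63 (SE 0.23, adjusted p = 0.311). Abcc2, its apical relative, had a log2 fold change of -0.45 (SE 0.41, adjusted p = 0.601). The hepatic carrier Slco1a4 was at 0 counts in all libraries.

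Genes of bile acid synthesis and conjugation were tested for 12 of 18, 6 higher and 6 lower, with a median of -0.14 (-0.08 without Apc1322T replicate 2 or 3). The peroxisomal enzyme Hsd17b4 had log2 CPM of 7.73, 7.88 and 7.78 in Apc1322T replicates 1 to 3 and 7.40, 7.36 and 7.47 in ApcMin replicates 1 to 3. Its log2 fold change was -0.39 (SE 0.08) with an adjusted p of 0.257 in edgeR. The peroxisomal thiolase gene Scp2 had -0.54 (SE 0.25, adjusted p = 0.359), and Hsd3b7, a steroid dehydrogenase of this pathway, had 0.32 (SE 0.12, adjusted p = 0.31).

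Nuclear receptors and other regulators of ileal bile acid genes were tested for 17 of 18, with 2 higher, 15 lower and a median of -0.30. Hnf4a, a factor of intestinal differentiation, had log2 CPM of 8.89, 9.38 and 9.42 in Apc1322T replicates 1 to 3 and 8.74, 8.97 and 8.40 in ApcMin replicates 1 to 3. Its log2 fold change was -0.53 (SE 0.20, adjusted p = 0.311). Those of Jun and Fos, which form AP-1, were -0.30 (SE 0.11, adjusted p = 0.312) and -0.26 (SE 0.17, adjusted p = 0.485). Enterocyte markers, listed above, also had lower fitted levels in ApcMin, and their part in this count was not tested.

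Other reported FXR targets were tested for 5 of 5, 3 higher and 2 lower, with a median of 0.15 (0 without ApcMin replicate 1, 0.27 without Apc1322T replicate 1 and 0.08 without Apc1322T replicate 3). Syndecan-1 (Sdc1) had a log2 fold change of 0.15 (SE 0.14, adjusted p = 0.608), the cytokine Il18 -0.79 (SE 0.30, adjusted p = 0.313) and angiogenin (Ang) -0.43 (SE 0.14, adjusted p = 0.288). Of the Fgf15 receptor genes, Fgfr4 had -0.18 (SE 0.18, adjusted p = 0.645), and its co-receptor Klb had 1.38 (SE 0.45, adjusted p = 0.287) with no overlap between genotypes. Cubilin partners and cobalamin genes were tested for 8 of 9, 3 higher and 5 lower, with a median of -0.15 (-0.04 without Apc1322T replicate 1 and -0.06 without ApcMin replicate 2). Transcobalamin (Tcn2) had -0.53 (SE 0.28, adjusted p = 0.395), Abcc1, which exports cobalamin from cells, had 0.29 (SE 0.15, adjusted p = 0.396), and the chaperone Lrpap1 had 0.16 (SE 0.14, adjusted p = 0.59).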

How the data were processed

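RNA from excised adenomas was sequenced as short single-end stranded reads, 3 libraries per genotype. The deposited values are expected counts per gene: according to the submitters' processing notes the authors quantified transcripts with Salmon on GRCm38.p6, and 50.6% of values above 0 are not whole (tolerance 0.001). They were rounded to whole numbers. Symbols and coordinates came from GENCODE M21. The members and all gene lists were chosen with earlier results of these data known.

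Genotypes were compared with edgeR 4.0.16 (robust quasi-likelihood fit, TMM, filterByExpr with a minimum count of 10 and minimum total of 15) in R 4.3.3, on 16536 genes, p-values being adjusted by Benjamini-Hochberg and called under 0.01. Log2 CPM used a prior count of 2. SE is the log2 fold change divided by the square root of F. The scripts were tested on simulated data. Named genes were the members, the 5 genes most like each of Fabp6, Slc10a2 and Akr1d1, and up to 3 genes per pathway list with the highest mean log2 CPM. Alternatives were DESeq2 1.42.0, other scalings, no filter, a replicate block and leaving out each library. The floor of 3 counts covers counting error only.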

Additional observations from a re-analysis of the deposited data

How the results depend on the processing

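The number of genes with an adjusted p under 0.01 was 0 in edgeR. It was 194 by the DESeq2 Wald test, 1 without the filter on low counts (Krt14) and 0 to 1 when each library was left out. The 1 gene called without ApcMin replicate 3 was among the 3 that led to the choice. Since its values were used for that choice, the call is not a test and is given no weight. The number of genes with an adjusted p under 0.05 was 1 in edgeR (Krt14). Genes with an unadjusted p under 0.05 numbered 2495, and 1180 to 4117 with a library left out. Among pathway genes that count was 19, and 6 to 24 with a library left out, while DESeq2 called 2 at an adjusted p of 0.01. The median for other bile acid transporters ranged from 0.06 to 0.36. Directions of the 4 members whose fold changes lay near 0 turned. Upper quartile scaling, which moved the median of all genes from 0.017 to 0.074, gave 0.05 for Slc51a, 0.04 for Slc51b and 0.01 for Nr0b2. Leaving out each library gave -0.31 to 0.31 for Slc51a, -0.47 to 0.28 for Slc51b, -0.50 to 0.58 for Nr0b2 and -0.49 to 0.55 for Cubn. The cause was not tested. Over all alternatives, 99 values of member fold changes showed no change of direction, 17 turned, all of Slc51a, Slc51b, Nr0b2 and Cubn, and 1, Akr1d1 without Apc1322T replicate 1, moved to -2.12. Fabp6, Slc10a2 and Akr1d1 were read without a test in each of them.

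The correlations of deviations between same-numbered libraries of the genotypes were -0.019, 0.148 and -0.279 over 2000 genes. Between libraries with unequal numbers they ran from -0.358 to 0.328. Equal replicate numbers thus gave no sign of paired samples, but so few libraries cannot exclude pairing. With a replicate block the log2 fold change was 0.13 for Nr0b2 and -0.04 for Cubn, both reversed, and 6.25 for Fabp6, and 0 pathway genes passed an adjusted p of 0.01.

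With 3 libraries per genotype, and with Fgf15, Nr0b2 and Gpbar1 at few counts, the precision was low, and differences of about 2 SE (Gpbar1) and larger (Abcc4, 1.33 with SE 0.27) were not called in edgeR.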
